A study of Mus musculus with 12 samples.

Results

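T cells recognise antigen with a receptor whose signalling chains sit in the CD3 complex, and the genes described here make 10 parts of that machinery. They are the CD3 chain gene Cd3e, the coreceptor chains Cd8a and Cd8b1, the surface molecules Cd6 and Thy1, the kinases Lck and Prkcq, the adaptor Lat, the Ras exchange factor Rasgrp1 and the transcription factor Tcf7. They were chosen by name, with earlier results of these data known, and are 10 of the 9338 genes that the authors' 4 tables list in at least 1 comparison. The RNA came from CD31+ cells of mouse lung, 1 mouse per library and 3 male C57Bl/6J mice in each of 4 groups.

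All mice carried the floxed allele (TET2 fl/fl) and received tamoxifen on 3 days (40 mg/kg) when aged 6 to 8 weeks. TET2 KO mice also carried Cdh5-CreERT2, a tamoxifen-inducible recombinase driven by the promoter of an endothelial cadherin gene, and WT mice were Cre-negative. They ate chow with 13% of its energy from fat or a high-fat diet (HFD) with 60% for 20 weeks and were 30 weeks old when the cells were taken. The groups are thus WT chow, TET2 KO chow, WT HFD and TET2 KO HFD. CD31 marks endothelial cells but is also carried by platelets and many leukocytes, so the selected cells are a mixture. The endothelial marker Pecam1, which encodes CD31, lay between 36.0 and 79.9 FPKM (fragments per kilobase of gene, scaled to the library's total) in WT chow, and T cell genes were measured beside it. Tet2 was listed only for HFD against chow in WT, with 5.02 ± 0.253 FPKM in WT chow and 6.37 ± 0.319 in WT HFD (SD, n = 3), so the genotype of the libraries rests on their labels. Libraries held 36.7 to 56.8 M reads on genes.

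When antigen binds the receptor, Lck, held near it by the CD4 or CD8 coreceptor, phosphorylates the CD3 chains. Lat then gathers the enzymes that raise calcium, activate Ras through Rasgrp1 and activate NF-kB through Prkcq. Cd6 and Thy1 are cell surface molecules of T cells, and Tcf7 encodes TCF-1, a factor of T cell development and of memory and naive cells. In the lung these genes are used mainly by T cells, and several are also used by innate lymphoid cells or natural killer (NK) cells. In RNA of a mixed sample, fewer cells of a type and less RNA per cell cannot be told apart.

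Upstream sequences were taken from the RefSeq promoter windows of GRCm38.p6, which held 9 windows for 7 of the 10 genes. Windows were searched over the 250 bases before each start, on both strands, for 6 short motifs. The members vary together (described further on), and the following windows, a kinase, a coreceptor and an adaptor, are shown to let their upstream letters be compared; they hold no annotated UTR. Capitals mark the RUNX motif TGTGGT, and windows without capitals hold none of the 6 motifs.
Lck, chr4:129573642-129573891, minus strand: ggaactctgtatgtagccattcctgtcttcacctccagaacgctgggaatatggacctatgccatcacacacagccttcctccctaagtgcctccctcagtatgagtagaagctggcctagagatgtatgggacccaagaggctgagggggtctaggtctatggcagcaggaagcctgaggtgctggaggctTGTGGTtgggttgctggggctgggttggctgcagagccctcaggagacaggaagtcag
Cd8a, chr6:71373177-71373426, plus strand: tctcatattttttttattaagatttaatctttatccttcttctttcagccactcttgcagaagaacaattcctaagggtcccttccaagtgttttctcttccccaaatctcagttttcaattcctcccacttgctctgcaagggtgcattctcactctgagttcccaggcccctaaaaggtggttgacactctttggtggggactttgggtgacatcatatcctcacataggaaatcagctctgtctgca
Lat, chr7:126369569-126369818, minus strand: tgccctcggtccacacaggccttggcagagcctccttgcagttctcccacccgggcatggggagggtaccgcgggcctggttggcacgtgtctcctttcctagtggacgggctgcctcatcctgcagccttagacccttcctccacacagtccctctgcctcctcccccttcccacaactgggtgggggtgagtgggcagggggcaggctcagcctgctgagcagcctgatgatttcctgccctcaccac

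The windows differed in base composition. The share of G and C was 56.4% before the Lck start, 42.8% before Cd8a and 65.2% before Lat. The RUNX motif was found in 1 of the 9 windows, before the more distant Lck start, and in 14.05% of all 32851 windows. The E box CACCTG was in 2 windows, those of Rasgrp1 and of the nearer Lck start, and in 17.22% of all windows. The ETS motif CCGGAA and the TATA box TATAAA were each in 1 window, that of the nearer Tcf7 start, and in 12.03% and 12.37% of all. The GATA motif AGATAA and the TCF/LEF motif CTTTGA, which TCF-1 binds, were in 0 of the 9 and in 9.99% and 13.83% of all windows. These letters are not sites of binding, and none was singled out by the genes' values.

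The comparison of TET2 KO with WT on chow asks how gene expression in CD31+ lung cells differs when Tet2 is deleted with an endothelial recombinase. On chow all 10 genes were listed, and each had a higher mean level in TET2 KO. Their log2 fold changes ran from 0.46 to 0.82 with a median of 0.65, where the median over the 1298 listed genes was -0.37. By edgeR 7 of the 10 were called, meaning an unadjusted p below 0.05, and 5 had 3 TET2 KO libraries above every WT library. Among the listed genes 30.6% were called higher and 46.0% lower, and 30.7% had TET2 KO libraries wholly above WT. Every listed gene had passed the authors' own p threshold in this contrast, so these counts describe the genes and are no support for a shared change. No gene passed Benjamini-Hochberg adjustment over 18463 genes (adjusted p from 0.792 to 1).

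**Figure D1:**
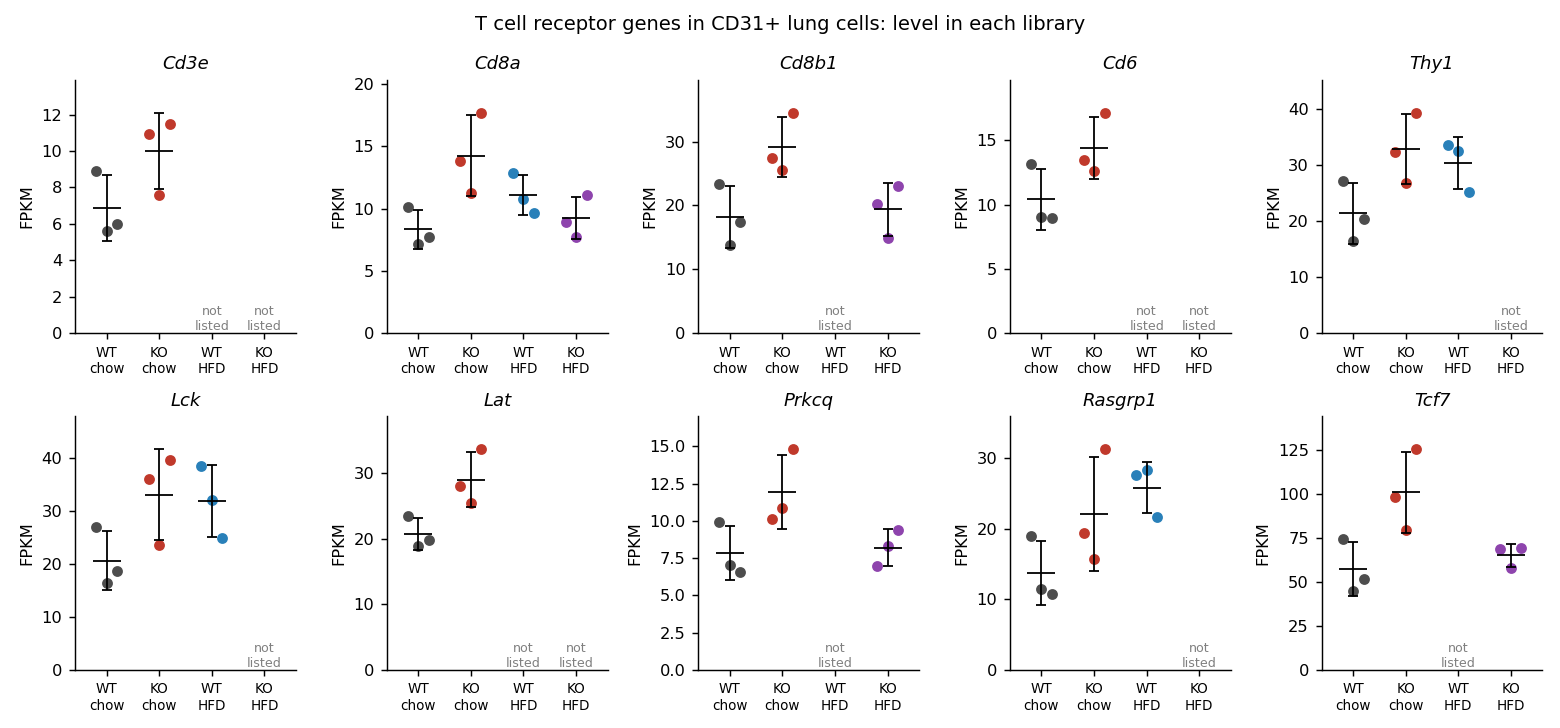
FPKM (vertical axes, from 0) of each gene in each library, by group (horizontal axes); points are mice, bars the mean and SD of 3 libraries, and "not listed" marks groups without values. Each of the 10 genes had a higher mean in TET2 KO chow than in WT chow, and Tcf7 had the highest level, 45.0 to 125.3 FPKM over the chow libraries.

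Of the receptor complex and its coreceptors, Cd3e (ENSMUSG00000032093, chromosome 9, 44998740 to 45009627 of mm10, minus strand) encodes the epsilon chain that carries a signalling motif. Its levels were 8.92, 5.63 and 6.02 FPKM in WT chow and 10.9, 7.60 and 11.5 FPKM in TET2 KO chow. WT chow replicate 1 lay above TET2 KO chow replicate 2, so the groups overlapped, and the log2 fold change of 0.54 (SE 0.24, edgeR) was not called. Cd8a (ENSMUSG00000053977, chromosome 6, 71373427 to 71379173, plus strand) encodes the alpha chain of the coreceptor of cytotoxic T cells. Its levels were 10.1, 7.15 and 7.70 FPKM in WT chow and 13.8, 11.2 and 17.7 FPKM in TET2 KO chow. The 3 TET2 KO libraries all lay above WT, and Cd8a rose by 0.77 on the log2 scale (SE 0.22, adjusted p = 0.792), a ratio of 1.71. Cd8b1 (ENSMUSG00000053044, chromosome 6, 71322788 to 71337494, plus strand), the gene of the beta chain, starts on the same strand and ends 35.9 kb before Cd8a begins. It had 23.3, 13.8 and 17.4 FPKM in WT chow and 27.4, 25.6 and 34.5 FPKM in TET2 KO chow, without overlap, and rose by 0.68 on the log2 scale (SE 0.23, adjusted p = 0.832). The Cd8b1 level stood between 1.93 and 2.31 times that of Cd8a in each of the 9 libraries that hold both.

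The 2 other surface molecules each had a WT library inside the TET2 KO range. Cd6 (ENSMUSG00000024670, chromosome 19, 10789341 to 10830058, minus strand) encodes a scavenger receptor-like molecule that tunes receptor signals. It had 13.2, 9.03 and 8.995 FPKM in WT chow and 13.5, 12.6 and 17.2 FPKM in TET2 KO chow, a log2 fold change of 0.46 (SE 0.21) that was not called. Thy1 (ENSMUSG00000032011, chromosome 9, 44043384 to 44048579, plus strand), a GPI-anchored protein also found on neurons and fibroblasts, had 27.3, 16.5 and 20.4 FPKM in WT chow and 32.4, 26.9 and 39.4 FPKM in TET2 KO chow. In both it was WT chow replicate 1, and Thy1 rose by 0.62 on the log2 scale (SE 0.23, adjusted p = 0.890).

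Of the kinases, the adaptor and the exchange factor, Lck (ENSMUSG00000000409, chromosome 4, 129548344 to 129573641, minus strand) had 27.0, 16.4 and 18.6 FPKM in WT chow and 36.2, 23.5 and 39.8 FPKM in TET2 KO chow. The groups overlapped by 1 WT library, and Lck rose by 0.68 on the log2 scale (SE 0.27, adjusted p = 0.898). Lat (ENSMUSG00000030742, chromosome 7, 126363824 to 126369570, minus strand) had the smallest SE of the 10, with 23.4, 18.8 and 19.8 FPKM in WT chow and 27.9, 25.4 and 33.6 FPKM in TET2 KO chow, without overlap (log2 fold change 0.49, SE 0.17, adjusted p = 0.832). Prkcq (ENSMUSG00000026778, chromosome 2, 11172108 to 11301222, plus strand), which encodes protein kinase C theta, had 9.92, 7.003 and 6.60 FPKM in WT chow and 10.2, 10.8 and 14.8 FPKM in TET2 KO chow. The nearest libraries of the groups stood close, 9.92 against 10.2 FPKM, and Prkcq rose by 0.60 on the log2 scale (SE 0.22, adjusted p = 0.880). Rasgrp1 (ENSMUSG00000027347, chromosome 2, 117279993 to 117343001, minus strand) had the widest spread, with 18.9, 11.5 and 10.8 FPKM in WT chow and 19.4, 15.7 and 31.2 FPKM in TET2 KO chow. Its log2 fold change of 0.68 was as large as that of Lck but its SE was 0.32, and it was not called.

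Tcf7 (ENSMUSG00000000782, chromosome 11, 52252371 to 52283014, minus strand) had the highest level of the 10 and the largest fitted change. It had 74.5, 45.0 and 51.9 FPKM in WT chow and 98.3, 79.5 and 125.3 FPKM in TET2 KO chow, without overlap. Tcf7 rose by 0.82 on the log2 scale (SE 0.25, adjusted p = 0.792), a ratio of 1.76. Of the 7 called genes, Cd8a and Tcf7 stayed under the threshold with each of the 6 libraries left out in turn. Cd8b1 lost its call when WT chow replicate 2 or TET2 KO chow replicate 3 was left out, and Lat, Prkcq, Thy1 and Lck lost theirs without either of these and also without WT chow replicate 3. Thy1 and Lck also lost it without TET2 KO chow replicate 1. The count of 7 was 2 when WT chow replicate 2 or TET2 KO chow replicate 3 was left out, 3 without WT chow replicate 3 and 10 without WT chow replicate 1.

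**Figure D2:**
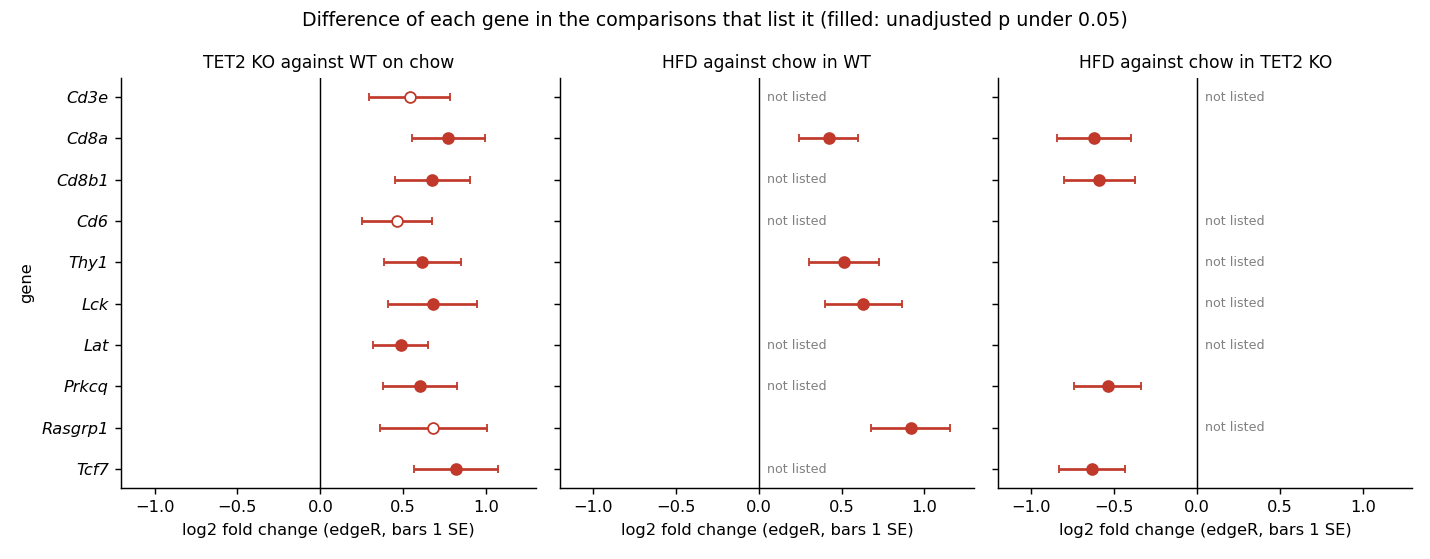
Log2 fold change (horizontal axes) of each gene (vertical axis) in the 3 comparisons that list any of the 10, with bars of 1 SE; filled points had an unadjusted edgeR p under 0.05. Values were positive in the chow and the WT comparison and negative for the diet in TET2 KO.

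The ranking of the genes by level depended on the gene length used. The FPKM values divide by the merged exons of each gene, which count retained introns, and for 9 of the 10 genes that length equalled the merged exons of GENCODE M21. Divided instead by the principal transcript, the median of Cd3e in WT chow went from 6.02 to 16.8 FPKM and that of Lat from 19.8 to 44.3. On the deposited scale Tcf7 stood alone in WT chow, since its lowest library, 45.0 FPKM, lay above the 27.3 FPKM that was the highest value of any other member. On the transcript scale Tcf7 ran from 47.8 to 79.1 FPKM and Lat from 42.1 to 52.4, so these neighbours overlapped. Thy1, Lck, Cd8b1 and Cd3e followed with medians of 35.2, 25.0, 17.4 and 16.8 FPKM and overlapping ranges. Prkcq, Rasgrp1, Cd6 and Cd8a had the lowest medians on that scale, 13.8, 12.3, 10.1 and 8.95 FPKM, and each overlapped the next. Antisense genes or transcripts of unknown type overlap Cd3e, Prkcq and Tcf7 on the other strand, and whether counting used the strand is not given in the sources used here, so part of their reads could belong to those.

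The 10 genes went up and down together from mouse to mouse. All 10 had their highest WT level in WT chow replicate 1 and their highest TET2 KO level in TET2 KO chow replicate 3, and 9 of the 10 had their lowest TET2 KO level in replicate 2. The geometric mean over the 10 was 19.2, 12.5 and 13.5 FPKM in WT chow and 22.6, 19.0 and 28.6 FPKM in TET2 KO chow, so the WT library with the most lay between the TET2 KO libraries. Each gene's log2 level correlated with the mean of the other 9 over the 6 libraries with Pearson's r from 0.949 (Prkcq) to 0.995 (Tcf7), a description over libraries that also share the genotype difference. Against the mean of the other 9, Tcf7 was 0.21 and Cd8a 0.14 higher in TET2 KO on the log2 scale and Cd6 0.18 lower, with no overlap between the groups for these 3 genes. For the remaining 7 the ratio to the others overlapped between genotypes. The 10 ratios depend on each other, and no share over all genes was computed to set beside this count. It was not tested, and no difference particular to a gene is read from it.

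**Figure D3:**
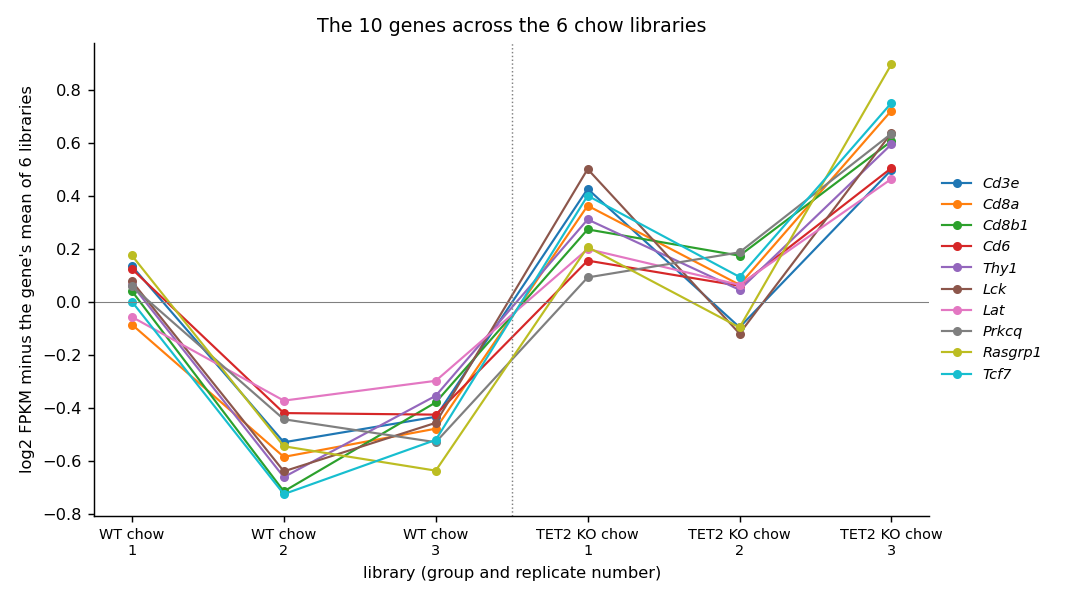
Log2 FPKM of each gene minus its mean over the 6 chow libraries (vertical axis) by library (horizontal axis); each line joins the values of 1 gene, and replicates have no order. All 10 genes lay highest in TET2 KO chow replicate 3, and WT chow replicate 1 lay above the other WT libraries for every gene.

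Other cell types' markers moved in the same libraries. Of the NK list only Nkg7 and Prf1, 2 of 10, were listed and both rose, with a summed level of 26.5 to 40.3 FPKM in TET2 KO against 14.8 to 23.7 in WT. Others of that list, such as Ncr1 and Klrb1c, were not listed, so no change of NK cells is read from these 2. Lung epithelial markers were listed for 2 of 10 and both fell, from 4235 to 5543 FPKM summed in WT to 2322 to 3047 in TET2 KO. Scgb1a1 made most of that sum, with a mean of 5038 FPKM in WT chow against 66.05 for Scgb3a2. The others of that list were not listed, so no change of epithelial cells is read from these 2. Fibroblast and smooth muscle markers were listed for 4 of 10 and all 4 fell, from 4.33 to 9.18 FPKM to 3.05 to 3.86. Of the monocyte list only Ccr2 was listed and rose, and of 10 B cell and 8 neutrophil markers 0 were listed. Of 14 endothelial markers only Nos3 and of 7 platelet markers only Gp1ba were listed, and neither was called. None of these genes was at 0 in any library, and the part of these markers in the T cell gene differences was not tested.

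Of 80 further genes of the receptor pathway and of T cells, 13 were listed on chow, all with a higher mean in TET2 KO, and 7 were called, beside 30.6% of all listed genes called higher and 46.0% lower. They too were listed by passing the authors' threshold in this contrast, so the counts are a description. Trac, the constant region of the alpha chain, had 21.3, 12.8 and 22.1 FPKM in WT chow and 37.7, 29.2 and 30.5 in TET2 KO chow, and rose by a log2 fold change of 0.79 (SE 0.24). Bcl11b, a transcription factor of T cell identity, rose by 0.84 (SE 0.30) and Lcp2, which encodes the adaptor SLP-76, by 0.42 (SE 0.15). The other called genes were Nfatc2, Cd28, Il7r and Cd226. Of the T cell receptor chains beside Trac only Trbc2 was listed, with a log2 fold change of 0.46 that was not called. The count of 7 was 1 when WT chow replicate 3 or TET2 KO chow replicate 3 was left out, 2 without WT chow replicate 2 and 11 without WT chow replicate 1.

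In WT mice the question was what the high-fat diet alone changed. Cd8a, Lck, Thy1 and Rasgrp1 were listed, 4 of the 10 genes, and the others have no WT HFD values here. All 4 were higher on HFD and called, beside 42.4% of the 7330 listed genes called higher and 49.2% called lower. Each had already passed the authors' threshold in this contrast, so nothing is read from that count. Rasgrp1 had 27.6, 28.3 and 21.7 FPKM in WT HFD against 18.9, 11.5 and 10.8 in WT chow, without overlap, and rose by 0.92 on the log2 scale (SE 0.24, adjusted p = 0.0627). It was the only one of the 4 without overlap, which 39.8% of the listed genes were in that direction. Lck had 38.5, 32.2 and 24.9 FPKM in WT HFD, of which the lowest lay under WT chow replicate 1, and rose by 0.63 (SE 0.23, adjusted p = 0.130). Thy1, with 33.7, 32.5 and 25.2 FPKM, rose by 0.51 (SE 0.21, adjusted p = 0.160), and Cd8a, with 12.9, 10.8 and 9.67 FPKM, by 0.42 (SE 0.18, adjusted p = 0.170). In both the lowest HFD library lay under WT chow replicate 1. Rasgrp1 kept its call with each library left out, while Lck, Thy1 and Cd8a lost theirs without WT HFD replicate 1 or 2 or WT chow replicate 2 or 3, which takes the count from 4 to 1. With TMM factors in place of the authors' size factors Thy1 and Cd8a were not called, which takes it to 2.

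The WT HFD levels can be set beside those of TET2 KO on chow only for these 4 genes, which have WT HFD values because each passed the authors' threshold by being higher there than in WT chow, so the values are given with no test. Lck stood at 31.9 ± 6.80 FPKM in WT HFD and 33.2 ± 8.53 in TET2 KO chow (SD, n = 3). Thy1 stood at 30.4 ± 4.62 and 32.9 ± 6.26 FPKM, and Rasgrp1 at 25.8 ± 3.64 and 22.1 ± 8.13. Cd8a stood at 11.1 ± 1.62 and 14.2 ± 3.26 FPKM. The libraries of the groups overlapped for all 4 genes.

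Endothelial and NK markers moved with the diet in WT too. Of 14 endothelial markers 12 were listed, all higher on HFD and 11 called, with a summed level of 831.9 to 1474 FPKM against 279.7 to 787.1 on chow. Of 10 NK markers 9 were listed and all 9 rose, from 32.0 to 53.6 FPKM summed to 97.3 to 160.7. Of the pathway genes 22 of 80 were listed, 16 called higher and 5 lower. Among all listed genes 42.4% were called higher and 49.2% lower. These genes and the markers were listed by passing the authors' threshold in this contrast, so the counts are a description. Spn, which encodes the sialoglycoprotein CD43 of leukocytes, rose by 1.10 on the log2 scale (SE 0.14, adjusted p = 0.0357), Id3 by 0.95 and Ptpn6, the phosphatase SHP-1, by 0.54. The genes that fell included Sos1 (-0.38), Grap2 (-0.61) and Satb1 (-0.84), an exchange factor, an adaptor and a chromatin organiser. Of the other lists, 5 of 10 monocyte and macrophage markers were listed (3 called higher, 2 lower), 1 of 8 neutrophil (1 lower), 4 of 7 platelet (3 lower), 6 of 10 lung epithelial (2 higher, 2 lower), 3 of 10 fibroblast and smooth muscle (1 higher, 1 lower) and 0 of 10 B cell markers. The part of these markers in the T cell gene differences was not tested.

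In TET2 KO mice on HFD, compared with TET2 KO mice on chow, the listed genes of the 10 were lower. Cd8a, Cd8b1, Prkcq and Tcf7 were listed, and all 4 fell without overlap between the diets. Among the 1628 listed genes 29.3% were called higher and 47.7% lower, and 42.4% were lower without overlap, and these counts too follow the authors' threshold in the same contrast. Tcf7 had 68.6, 57.6 and 69.1 FPKM in TET2 KO HFD against 98.3, 79.5 and 125.3 on chow, and fell by 0.63 on the log2 scale (SE 0.20). Cd8a had 8.93, 7.74 and 11.1 FPKM, all under the lowest TET2 KO chow value of 11.2, and fell by 0.62 (SE 0.22). Cd8b1, with 20.3, 14.9 and 23.0 FPKM, fell by 0.59 (SE 0.21) and Prkcq, with 6.94, 8.28 and 9.39, by 0.54 (SE 0.20). The median log2 fold change of the 4 was -0.60 and that of all listed genes -0.51. Adjusted p-values ran from 0.706 to 0.718 over 19511 genes.

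These 4 calls were lost when TMM factors replaced the authors' size factors. TMM factors moved the median of all listed genes by 0.25 on the log2 scale, and library totals moved it by -0.0005. With TMM the 4 genes had log2 fold changes of -0.39 (Tcf7), -0.37 (Cd8a), -0.33 (Cd8b1) and -0.31 (Prkcq), so 0 were called. TMM takes most genes as unchanged, but here it was run on listed genes only, 638 higher and 990 lower. The loss therefore cannot settle whether the calls depend on the scaling. Tcf7 kept its call with each library left out under the authors' size factors. The count of 4 was 2 without TET2 KO HFD replicate 1 and 1 without TET2 KO HFD replicate 2 or TET2 KO chow replicate 3.

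Set beside WT chow, the TET2 KO HFD levels exist only for the 4 genes that passed the authors' threshold by being lower on HFD within TET2 KO, so their being lower than in TET2 KO chow was fixed by the listing and no test is given. Tcf7 had 65.1 ± 6.52 FPKM in TET2 KO HFD and 57.1 ± 15.4 in WT chow (SD, n = 3). Cd8b1 had 19.4 ± 4.12 and 18.2 ± 4.80 FPKM, Prkcq 8.21 ± 1.23 and 7.84 ± 1.81, and Cd8a 9.25 ± 1.69 and 8.32 ± 1.57. The groups overlapped for all 4, and the other 6 genes have no TET2 KO HFD values here.

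Of the receptor chains outside the 10 genes, Trac and Trdc were listed in this comparison, in opposite directions. Trac had 21.6, 16.5 and 20.1 FPKM in TET2 KO HFD, all under the TET2 KO chow libraries, and fell by 0.74 (SE 0.19). Trdc, the constant region of the delta chain of gamma-delta T cells, had 2.86, 3.36 and 2.64 FPKM in TET2 KO HFD against 1.69, 1.52 and 2.47 on chow, and rose by a log2 fold change of 0.64 (SE 0.24). Trac kept its call in 6 of 6 fits with 1 library left out, and Trdc in 3 of 6. In WT, where Trdc was also listed as higher on HFD, it kept its call in 1 of 6. Of the 80 pathway genes 5 were listed in this comparison, 2 called higher (Trdc and Cblb) and 2 lower (Trac and Il7r). Among all listed genes 29.3% were called higher and 47.7% lower. These genes and the markers below were listed by passing the authors' threshold in this contrast, so counts and directions are a description. Monocyte and macrophage markers were listed for 4 of 10, all lower on HFD and 3 called, with a summed level of 1998 to 3388 FPKM against 3965 to 5551. Lyz2 made most of that sum, with a mean of 4529 FPKM in TET2 KO chow against 87.6 for Mrc1, the next highest. Of the NK list only Gzma was listed, without a call, and of the endothelial list only Emcn, which rose. B cell markers were listed for 2 of 10, with 1 called higher, and fibroblast and smooth muscle markers for 4 of 10, all higher and 2 called. Of the neutrophil list Mmp8 and of the lung epithelial list Epcam were listed and fell, and 0 platelet markers were listed. Their part in the T cell gene differences was not tested.

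TET2 KO and WT mice were also compared on HFD, where 0 of the 10 genes were listed among 3939, that is, none passed the authors' listing threshold. Cd8a had counts in both groups from the other comparisons, with 9.25 ± 1.69 FPKM in TET2 KO HFD and 11.1 ± 1.62 in WT HFD (SD, n = 3). The log2 difference was -0.27, with overlap (exact permutation test, two-sided, p = 0.3, where 3 libraries against 3 cannot go below 0.1). Those counts exist because Cd8a was listed as higher on HFD in WT and lower on HFD in TET2 KO. The listing thus shaped this difference, and Cd8a had not passed the threshold here, so nothing is read from the test. Of the 80 pathway genes 11 were listed, 7 called higher and 3 lower, beside 43.1% of the listed genes called higher and 39.1% lower. They and the markers below were listed by passing the authors' threshold in this contrast, so these counts are a description. Grap2, an adaptor that links Lat to SLP-76, rose by 0.67 (SE 0.19), and Rasgrp2 and Rel rose by 0.42 and 0.51. Gata3, a transcription factor of helper T cells and innate lymphoid cells, fell by 0.65 (SE 0.18), Cd226 by 0.58 and Nck1 by 0.45. The 10 calls were 3 without TET2 KO HFD replicate 1 or WT HFD replicate 1, 4 without TET2 KO HFD replicate 2, 6 without WT HFD replicate 2 and 5 without WT HFD replicate 3. Endothelial markers were listed for 10 of 14, all lower in TET2 KO and 8 called, with 487.4 to 887.3 FPKM summed against 903.2 to 1642 in WT. Of the NK list 2 were listed without a call, of the monocyte list Ccr2 was listed and fell, both listed lung epithelial markers fell and both listed platelet markers rose, and no B cell, neutrophil or fibroblast marker was listed.

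**Figure D4:**
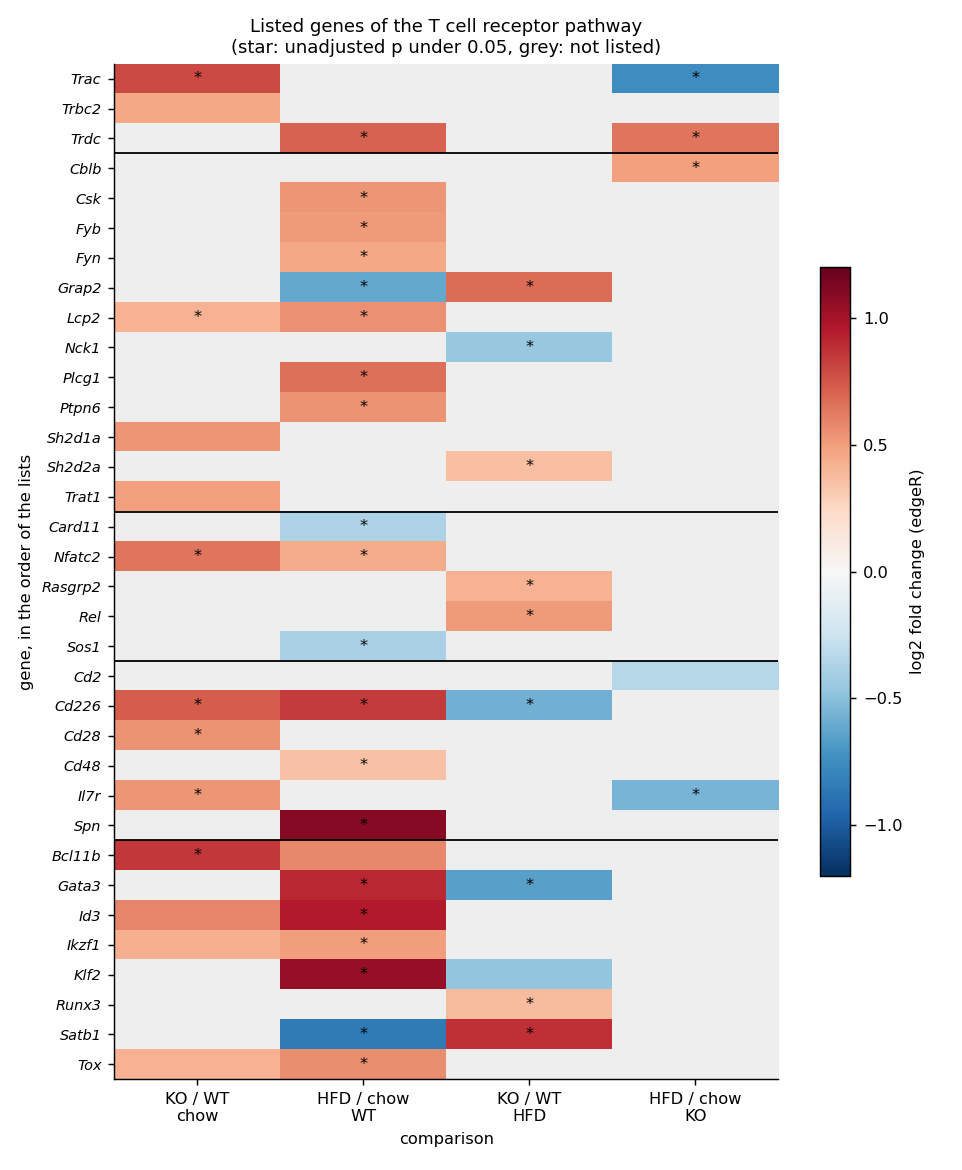
Log2 fold change (colour) of listed genes among the 80 further pathway genes (vertical axis, grouped by list) in the 4 comparisons (horizontal axis); stars mark an unadjusted edgeR p under 0.05 and grey marks genes not listed. Trac was higher in TET2 KO on chow and lower on HFD within TET2 KO, and Trdc was higher on HFD in both genotypes. Genes are shown only where they passed the authors' threshold, so these directions are those of the listing.

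The change of the genotype difference with diet could be fitted for 1 of the 10 genes, Cd8a, since only it had counts in all 12 libraries. The genotype effect on HFD minus that on chow was -1.37 on the log2 scale (SE 0.41, adjusted p = 0.0164 over the 975 genes with such counts, edgeR). Each of these 975 genes had been listed in more than 1 comparison, and 30.1% of them had a negative interaction at an unadjusted p under 0.05. Cd8a was among them because it was listed as higher on HFD in WT and as lower on HFD in TET2 KO. The interaction is the diet effect in TET2 KO minus that in WT, so its negative sign followed from the listing. The p-value is thus no support for an interaction. In this fit the TET2 KO level of Cd8a minus that of WT was 0.89 on chow (95% interval 0.26 to 1.52) and -0.47 on HFD (-1.10 to 0.15), and the HFD level minus that on chow was 0.83 in WT (0.20 to 1.46) and -0.54 in TET2 KO (-1.17 to 0.09). The diet value in WT rests on the scaling, since with the authors' size factors it was 0.42. The fit scales the libraries by TMM over the 975 genes, all selected by listing, and with library totals alone the interaction was -1.04 and was called. It kept its sign and its call with each of the 12 libraries left out, from -1.65 to -1.14.

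Of the pathway genes Cd226 and Trdc had counts in all 12 libraries. Cd226, an activating receptor of T cells and NK cells, had an interaction of -1.62 (SE 0.51, adjusted p = 0.0191), and Trdc one of -0.40 (SE 0.46) that was not called (adjusted p = 0.539). Cd226 was listed as higher in TET2 KO on chow and as lower in TET2 KO on HFD. The sign of its interaction thus also followed from the listing. Trdc was listed as higher on HFD in both genotypes, which favours a small interaction. Its missing call is therefore not read as an absence of one.

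**Figure D5:**
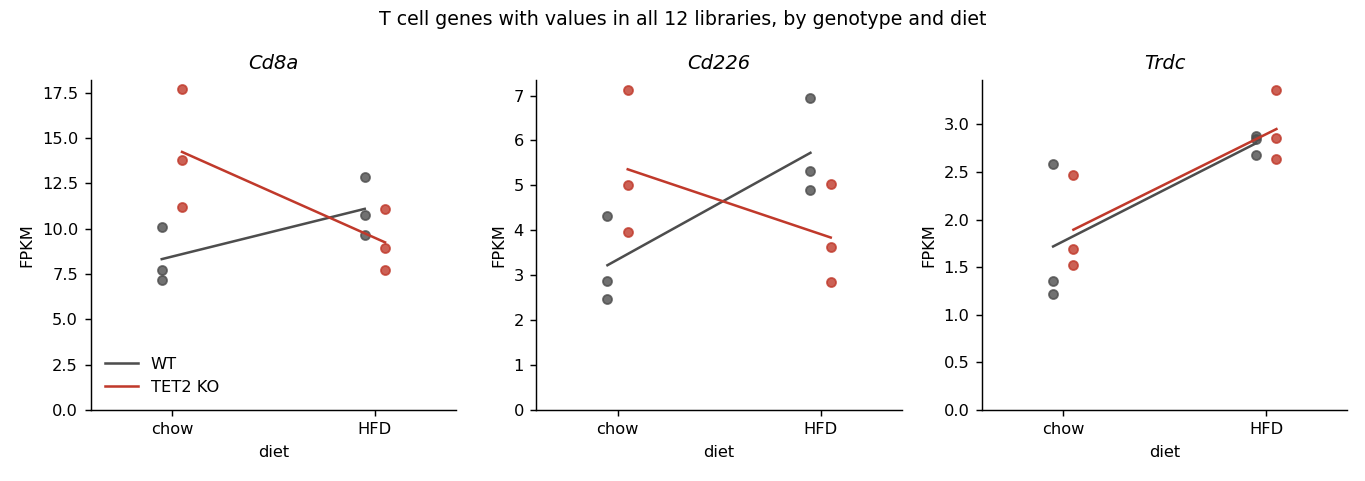
FPKM (vertical axes, from 0) of the 3 T cell genes with values in all 12 libraries, on chow and HFD (horizontal axes), in WT (grey) and TET2 KO (red); points are mice and lines join group means. Cd8a and Cd226 had their higher mean in TET2 KO on chow and in WT on HFD, while the Trdc means were higher on HFD in both genotypes. Trdc was listed as higher on HFD in each genotype, so that direction was fixed by the listing.

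Among 827 genes with counts in all 12 libraries and a mean of at least 50 reads, the one most like the 10 was Cd40lg, the ligand through which helper T cells signal to B cells, with Pearson's r of 0.975 to their mean standardized level. Cd40lg ran from 4.09 to 8.70 FPKM in TET2 KO chow and from 2.16 to 5.09 in WT chow, and from 2.56 to 4.43 in TET2 KO HFD and 4.86 to 7.55 in WT HFD. The next were Art2b (0.942), an ADP-ribosyltransferase of T cells, F2rl1 (0.929), Cd226 (0.926), L3mbtl3 (0.921), Ifit1bl1 (0.918), Zc3h12d (0.889) and Zdhhc15 (0.883). These are descriptions over 12 libraries that share the groups' differences, and the mean rests on 10 genes in the chow libraries and on 4 in each HFD group. The 4 in WT HFD were listed for being higher there and the 4 in TET2 KO HFD for being lower, so listing shaped the mean that the genes were compared with.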

How the data were processed

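RNA of CD31+ mouse lung cells was sequenced as paired-end poly(A) libraries, 12 in 4 groups of 3. The authors aligned reads to mm10 with HISAT2, counted them with featureCounts and compared groups with DESeq2; versions, annotation release and strand setting are not given in the sources used here. The authors deposited 4 tables, each listing only genes whose DESeq2 p-value before adjustment was below 0.05, with raw counts per library, normalized signal (count divided by a size factor), FPKM values, log2 fold changes, p-values and gene length. The log2 fold changes were not used, and the authors' p-values served only to recover the number of genes adjusted. The members and gene lists were chosen with earlier results of these data known.

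Listed counts were tested with edgeR 4.0.16 (quasi-likelihood, R 4.3.3), 3 against 3 libraries, with the authors' size factors, called at an unadjusted p under 0.05. Spread was estimated on listed genes only, which the p-values do not account for. The interaction was fitted over 12 libraries with TMM factors. Named were the 10 members, up to 3 called pathway genes with the lowest p in each direction and comparison, the 8 most alike genes, Tet2 and up to 3 listed markers per list; others are named because their values were seen. FPKM levels were set side by side across tables, with an exact permutation test for Cd8a on HFD, and logged with 0.1 added for likeness. Alternatives were DESeq2 1.42.0, limma-trend 3.58.1 on log2(normalized count + 1) and log2(FPKM + 0.1), a mean count of at least 10, library totals, TMM factors, a replicate block, adjusted p and leaving out each library. Fits were tested on simulated data. Values of 1 further pathway gene are not reported here, though it stays in the counts. For its aortic rings the paper names the WT mice as littermates of the TET2 KO mice. It does not say so for the sequenced mice, and p-values measure the spread between the mice.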

Additional observations from a re-analysis of the deposited data

Results flagged for a closer look

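For Cd8a the genotype effect on HFD minus that on chow was -1.37 on the log2 scale (edgeR, adjusted p = 0.0164). TET2 KO lay above WT in all 3 libraries on chow, and the groups overlapped on HFD. Cd8a had counts in every library because it was listed as higher on HFD in WT and lower on HFD in TET2 KO. The negative sign followed from that listing, so the p-value is no support for an interaction. The same test gave -1.62 for Cd226 (adjusted p = 0.0191), the activating receptor of T cells and NK cells. Its sign too followed from the listing, as higher in TET2 KO on chow and lower in TET2 KO on HFD. Both values come from 975 genes that were listed in more than 1 comparison.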

How the results depend on the processing

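No log2 fold change of a member changed sign under any alternative that was run. Each had been listed for its difference in the same libraries, so a reversal was unlikely from the start. At an adjusted p under 0.05 0 members were called in each of the 3 comparisons that list any. The pathway genes called were 2 for the diet in WT and 0 in the other 3 comparisons. Of all listed genes, 1368 of 7330 passed for the diet in WT and 1 of 1628 for the diet in TET2 KO. In each genotype comparison 0 passed. With TMM factors the members called were 2 for the diet in WT and 0 for the diet in TET2 KO, where the pathway genes called were 2. These factors were taken over listed genes only. Leaving out 1 library gave 2 to 10 members called on chow, 1 to 4 for the diet in WT and 1 to 4 for the diet in TET2 KO, and 1 to 11, 15 to 17, 3 to 9 and 1 to 4 pathway genes called in the order of the tables. The interaction of Cd8a was called in every fit, though its sign followed from the listing.

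The replicate block left 7 members called on chow, with Cd3e added (log2 fold change 0.55) and Prkcq lost (0.61), and 4 in each diet comparison. Correlations of the deviations of same-numbered libraries ran from -0.165 to 0.237, so no pairing by number was seen. With 3 libraries per group this does not exclude a pairing. Whether genes outside the listed set moved cannot be told from these tables.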
